A study of Equus caballus with 10 samples.

Results

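The genes described here are 9 genes of the aryl hydrocarbon receptor pathway in horse tenocytes, the resident cells of tendon. They are the receptor AHR, its partners ARNT and ARNT2, the repressors AHRR and TIPARP, and the target genes CYP1A1, CYP1B1, CYP1A2 and ALDH3A1. All 9 were found by symbol among the 29196 genes of the table. The set was chosen by pathway, with the differences between the 2 groups compared here already known, CYP1A1 foremost. The differences of the members between these groups are therefore given as a description, with no p-value.

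RNA from 5 lines of tenocytes, each line grown from the superficial digital flexor tendon of a different Thoroughbred or similar horse (2 to 11 years old over all donors), was sequenced under 2 conditions. All cultures were collagen gels kept for 14 days with cells of passage 6 to 7, and all received PF-06650833 at 100 nM every day, an inhibitor of the kinase IRAK-4, which relays signals of the interleukin-1 receptor. The first group received PF-06650833 alone (5 libraries), and the second IL-1β, an inflammatory cytokine, at 17 ng/ml every 3 to 4 days together with PF-06650833 (5 libraries). The lines are numbered 1 to 5, each has 1 library per group, and libraries without the inhibitor were not analysed here, so the effect of the inhibitor itself cannot be read from these values.

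AHR is a transcription factor held in the cytoplasm by chaperones until a ligand binds, such as a planar aromatic pollutant or a breakdown product of tryptophan. It then enters the nucleus, pairs with ARNT or ARNT2 and switches on genes of the cytochrome P450 1 family, whose enzymes oxidise aromatic ligands, some of the receptor's own included. AHRR, which competes for ARNT, and TIPARP, an enzyme that attaches ADP-ribose to the receptor, are targets that limit the response in turn.

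The values are log2 expression as deposited, normalized between libraries, on a scale where a gene with 0 reads stands at 3.43. Levels are compared between libraries and not between genes, since no gene lengths were used. Estimated depths were 26692774 to 36093461 reads per library (exact permutation test between the groups, two-sided p = 0.492). Of 17992 genes tested with limma, 1202 (6.68%) were called, that is, had an adjusted p below 0.05 together with a log2 fold change of 1 or more in either direction, and the groups did not overlap for 2284 (12.7%). Among 9 tendon markers, COL1A1 and COL1A2 were between 16.5 and 19.5 in every library, and lower with IL-1β in all 5 lines (-1.38 and -1.28, called only with the tenocyte line as a replicate block). TNMD was at 0 reads in every library, and the tendon transcription factors SCX and MKX were called lower with IL-1β (log2 fold change -3.24 and -2.85). DCN went the other way, higher with IL-1β in all 5 lines (1.01), and was not called. THBS4, FMOD and TPPP3 differed by -1.22, -1.31 and -0.11, with lines in both directions, and were not called. Of 6 leukocyte markers CD68 was called higher, while CD3E was at 0 reads and PTPRC at or below 4.20 in all libraries, and the list summed to 55 to 1757 normalized counts without IL-1β and 171 to 1908 after it was added. CD14 held up to 1662 and 1682 of these counts. It was above 0 reads in 2 libraries without IL-1β and in 4 with it, and was not called. Of 16 listed markers of epithelial, mural, endothelial and adipose cells, 2, 4, 3 and 2 in this order were tested. Among those tested, CDH1, RGS5 and CSPG4 were called lower and ADIPOQ higher. ACTA2 (-1.01) was called lower only with the replicate block. The differences of these marker genes lay between the same groups as the values below, and their part in them was not tested.

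Of the 9 members, 8 were above 0 reads in at least 5 libraries and entered the test, and CYP1A2 did not. The calls fell on 2 of these 8, CYP1A1 and ALDH3A1, both higher with IL-1β, beside 6.68% of all tested genes. The groups did not overlap for 3 of the 8, CYP1A1, ALDH3A1 and ARNT2, beside 12.7% of all tested genes. As the pathway was chosen on this contrast, nothing is read from these shares.

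**Figure D1:**
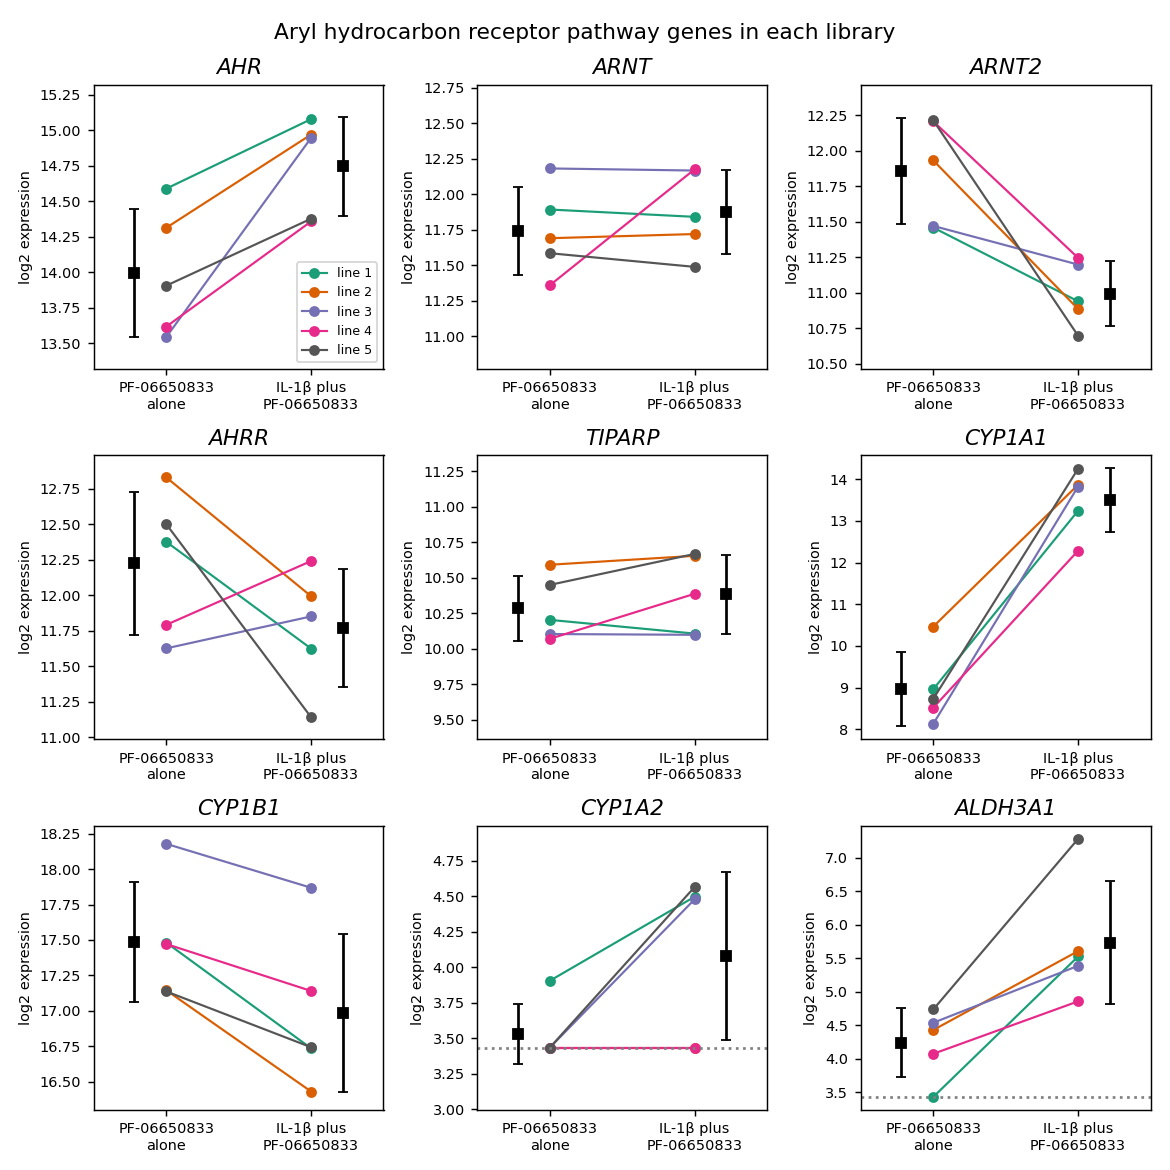
Log2 expression (vertical axis, a separate range for each gene) of the 9 genes in each library, with PF-06650833 alone on the left and IL-1β plus PF-06650833 on the right; lines join the libraries of a tenocyte line, black squares with bars are the mean ± SD of 5 libraries, and the dotted line in the CYP1A2 and ALDH3A1 panels is the value of a gene with 0 reads. CYP1A1 stood at 8.14 to 10.47 without IL-1β and at 12.28 to 14.25 when it was present, and CYP1B1 was lower with IL-1β in every line.

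The receptor itself was higher with IL-1β in each of the 5 lines. Among all tested genes, 32.75% had all 5 lines moving the same way. AHR was at 14.59, 14.31, 13.54, 13.62 and 13.91 in lines 1 to 5 with PF-06650833 alone, and at 15.08, 14.97, 14.95, 14.36 and 14.38 with IL-1β. The lowest values of the IL-1β group, those of lines 4 and 5, lay below the value of line 1 without IL-1β, so the groups overlapped. The mean was 13.99 ± 0.45 (SD, n = 5) against 14.75 ± 0.35 (SD, n = 5), a difference of 0.75 with an SD of 0.38 over the line differences, or 1.68-fold. A difference at least as large, in either direction, was found in 14.0% of tested genes. Line 3, lowest without IL-1β, had the largest difference, 1.40, and line 1 was highest in both groups. A line difference contains the level without IL-1β with a minus sign. Low levels there therefore tend to go with larger differences by construction, here and for AHRR and CYP1A1 below. In these bulk libraries, more cells with the transcript and more transcript per cell cannot be told apart, for AHR and for each gene below.

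The partners of the receptor differed from each other. ARNT, the general partner of this family of transcription factors, was at 11.89, 11.69, 12.18, 11.36 and 11.58 with PF-06650833 alone and at 11.84, 11.72, 12.17, 12.18 and 11.49 with IL-1β. In 4 lines its values differed by less than 0.10, and line 4 was higher by 0.82. The mean difference of 0.14 ± 0.38 (SD, n = 5) turned to -0.03 without line 4. ARNT2, a close relative best known from the nervous system, was at 11.46, 11.93, 11.47, 12.21 and 12.21 with PF-06650833 alone and at 10.94, 10.89, 11.20, 11.25 and 10.70 with IL-1β. Every value with IL-1β lay below every value without it. The mean went from 11.86 ± 0.38 to 10.99 ± 0.23 (SD, n = 5), a difference of -0.86 ± 0.48 or 1.82-fold lower, which is short of the minimum fold change for a call. Without line 3, whose difference was the smallest at -0.27, the difference was -1.01 and passed the limit.

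The repressors of the pathway had mixed or small differences. AHRR was at 12.38, 12.83, 11.63, 11.79 and 12.50 with PF-06650833 alone and at 11.63, 11.99, 11.85, 12.24 and 11.14 with IL-1β. With IL-1β it was lower in lines 1 and 2, by 0.75 and 0.84, and by more in line 5, and higher in lines 3 and 4, by 0.23 and 0.45. The lines that were lowest without IL-1β were those in which it was higher with it. The mean difference was -0.46 with an SD of 0.76 over the lines, and was -0.30 without the IL-1β library of line 5 and -0.23 without both libraries of that line. TIPARP lay between 10.07 and 10.59 in the libraries without IL-1β and between 10.10 and 10.67 in those with it. Its mean of 10.28 ± 0.23 against 10.38 ± 0.28 (SD, n = 5) differed by 0.10 ± 0.17, with 3 lines higher and 2 lower, and ranged from 0.03 to 0.18 with a library or line left out. It had 826 to 1407 estimated reads per library.

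CYP1A1, the enzyme whose transcript is the usual readout of AHR activity, had the largest difference of the members. In lines 1 to 5 it was at 8.97, 10.47, 8.14, 8.52 and 8.74 with PF-06650833 alone and at 13.24, 13.86, 13.82, 12.28 and 14.25 with IL-1β. The groups were separated by a gap of 1.82 between the highest library without IL-1β, line 2, and the lowest with it, line 4. The mean went from 8.97 ± 0.89 to 13.49 ± 0.76 (SD, n = 5), a difference of 4.53 ± 1.03 or 23.0-fold. It was the 28th largest increase among the 17992 genes tested. Line differences ran from 3.40 in line 2, which had the highest level without IL-1β, to 5.68 in line 3, which had the lowest. Its reads numbered 200 to 1055 without IL-1β and 3520 to 16739 in the presence of it. With any library or line left out, the difference stayed between 4.24 and 4.90 and the gene was called. As CYP1A1 was chosen with this contrast known, these fits are a description and add no support.

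CYP1B1, the other enzyme of the family that is active outside the liver, was at 17.48, 17.15, 18.18, 17.47 and 17.14 with PF-06650833 alone and at 16.74, 16.43, 17.87, 17.14 and 16.74 with IL-1β. It was lower with IL-1β in all 5 lines, while line 3 was highest and line 2 near or at the lowest in both groups, so the groups overlapped. All 5 lines moved the same way in 32.75% of tested genes. The mean went from 17.48 ± 0.42 to 16.98 ± 0.55 (SD, n = 5), a difference of -0.50 ± 0.21 or 1.41-fold lower, and was not called. A difference at least as large, in either direction, was found in 24.75% of tested genes. With quantile normalization the difference was -0.30, and it was -0.72 without the IL-1β library of line 3 and -0.32 without the PF-06650833 library of that line. CYP1B1 took 0.519 ± 0.192% of all normalized counts with PF-06650833 alone and 0.383 ± 0.183% with IL-1β (SD, n = 5). CYP1A1 took 0.00155 ± 0.00124% and 0.0349 ± 0.0155%. Reads of CYP1B1 ranged from 78235 to 227146 per library.

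CYP1A2, which is made mainly in the liver, had few or no reads in both groups. It had 1 read in line 1 and 0 in the other lines with PF-06650833 alone, and 5, 0, 5, 0 and 6 reads in lines 1 to 5 with IL-1β. CYP1A1 and CYP1A2 are near-identical copies in part, and reads of one may have been assigned to the other, so these few reads are uncertain as to gene. No fold is given, and a count of 0 allows up to 3 reads in a library, for counting error only.

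ALDH3A1, an aldehyde dehydrogenase induced through AHR in many tissues, had few reads. With PF-06650833 alone it had 0, 4, 5, 2 and 9 estimated reads in lines 1 to 5, and with IL-1β 22, 26, 20, 8 and 116. All 5 lines were higher and the groups did not overlap, although the lowest library with IL-1β, line 4, had 8 reads and the highest without it, line 5, had 9, before depth was taken into account. On the log2 scale the mean went from 4.24 ± 0.51 to 5.73 ± 0.91 (SD, n = 5), a difference of 1.49 ± 0.79. This scale compresses low values, and on log2(normalized count + 1) the difference was 2.88. The call rested on most libraries together. It was lost without the PF-06650833 library of line 1, 2 or 4 or the IL-1β library of line 1 or 2 (differences of 1.29 to 1.54), and without both libraries of line 1, 2 or 3 (1.34 to 1.65).

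**Figure D2:**
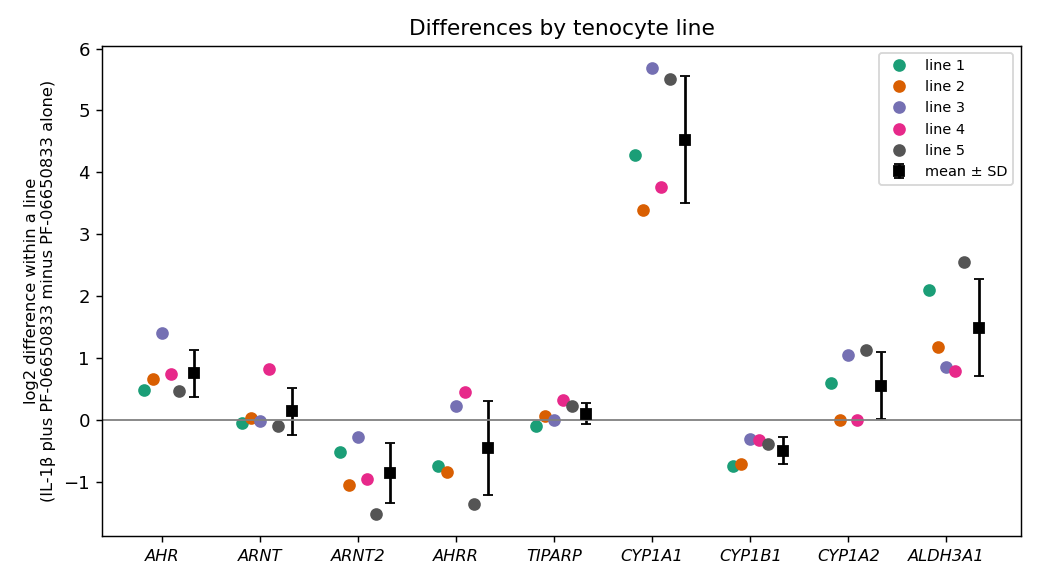
Difference in log2 expression between IL-1β plus PF-06650833 and PF-06650833 alone within each tenocyte line (vertical axis) for the 9 genes, in the order of their roles, with the mean ± SD of the 5 lines as black squares with bars. The line differences of CYP1A1 lie between 3.40 and 5.68, those of CYP1B1 between -0.74 and -0.31, and those of AHRR on both sides of 0.

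Ratios between members of the same library do not depend on how libraries were scaled to each other. The log2 ratio of CYP1A1 to CYP1B1 was -8.52 ± 1.21 with PF-06650833 alone and -3.49 ± 1.00 with IL-1β (SD, n = 5), a change of 5.02 ± 0.92 that ran from 4.09 to 5.99 over the lines. The ratio of the receptor to its repressor, AHR to AHRR, changed by 1.21 ± 0.57 and was higher in all 5 lines, from 0.29 in line 4 to 1.83 in line 5. CYP1A1 to AHRR changed by 4.98 ± 1.34 and CYP1A1 to TIPARP by 4.43 ± 1.06, so the proportions of these targets to each other differed between the groups. AHR to ARNT changed by 0.62 ± 0.53, higher in 4 lines and lower in line 4. The log2 ratio of ARNT to ARNT2 ranged from -0.85 to 0.71 without IL-1β and from 0.79 to 0.97 in its presence. The 5 lines thus lay within 0.18 of each other with IL-1β, against a spread of 1.56 without it. Other ratios did not all narrow. The SD over the lines went from 0.33 to 0.51 for AHR to AHRR and from 0.53 to 1.10 for CYP1A1 to AHRR. It was 0.72 in both groups for CYP1A1 to TIPARP and went from 0.53 to 0.44 for AHR to ARNT. How often gene pairs narrow in this way was not counted.

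**Figure D3:**
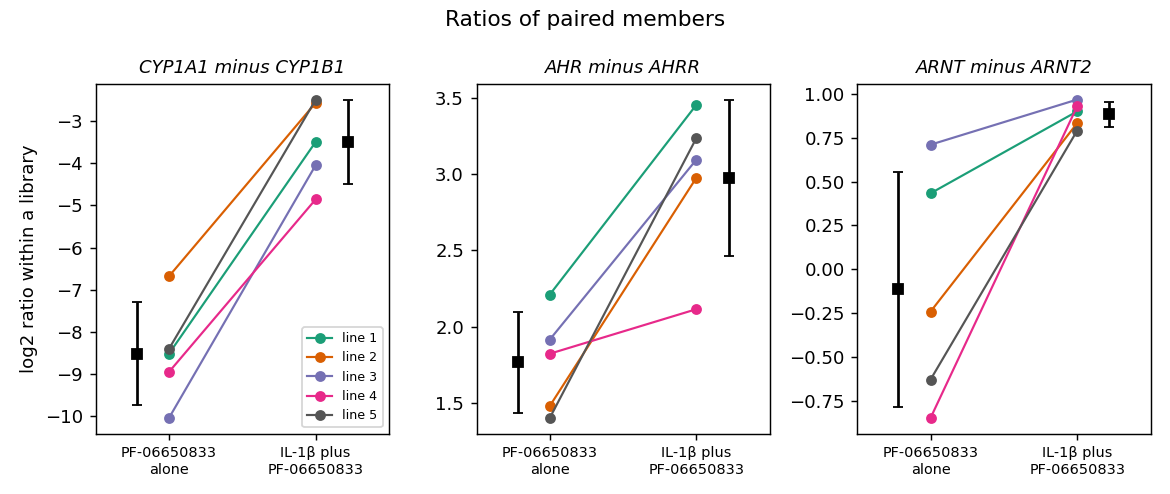
Log2 ratio of 2 members in each library (vertical axis, a separate range for each pair) with PF-06650833 alone and with IL-1β plus PF-06650833; lines join the libraries of a tenocyte line and black squares with bars are the mean ± SD of 5 libraries. Each of the 3 ratios plotted is higher with IL-1β in all 5 lines, and the ratio of ARNT to ARNT2 lies between 0.79 and 0.97 with IL-1β.

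The members differed in how far their spread was a property of the line. For CYP1B1, 95.3% of the spread within groups lay between lines, and 2.65% of tested genes had a share as large. Line 3 was highest in both groups, while the order of the other lines was not the same in both. TIPARP followed with 89.2%, AHR with 77.6% and ALDH3A1 with 71.7%, beside a median of 66.1% over all tested genes. ARNT2, at 39.2%, and AHRR, at 31.7%, had the least. Independent deviations of both libraries of a line would give an even split of the spread between and within lines. These lower shares mean that the libraries of a line deviated more in opposite directions than together. Among the deviations of the libraries from their group means, CYP1B1 went with ARNT (Pearson r = 0.73 over 10 libraries) and opposite to TIPARP (r = -0.68). Those of CYP1A1 had r = 0.56 with TIPARP, 0.48 with AHR and -0.37 with CYP1B1. The 10 libraries come from 5 lines, so these values are a description.

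Line 5 had the highest level with IL-1β of CYP1A1 (14.25) and of ALDH3A1 (7.28), and line 4 the lowest of both (12.28 and 4.86). The same highest and lowest lines, though not the same order of the lines between, were seen in PTGS2, the gene of the inducible cyclooxygenase, at 16.05 in line 5 and 13.22 in line 4. They were also seen in the growth factor gene EREG, at 14.74 and 11.32, and in the quinone reductase gene NQO1, at 11.98 and 10.23. SERPINB2, a protease inhibitor, was also highest in line 5, at 11.92, and lowest in line 3, at 6.54. Genes not listed as targets had these extremes too, such as HSP90AB1 (15.45 in line 5 and 14.80 in line 4) and KYAT1 (10.18 and 9.67). The share over all genes was not counted. AHR was not highest in line 5, since its levels with IL-1β in lines 4 and 5 were 14.36 and 14.38.

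By Pearson correlation over the 10 libraries, the genes with a symbol whose pattern was most like that of CYP1A1 were KCNK5 (r = 0.99), a potassium channel, FGD6 (r = 0.98), an exchange factor of small GTPases, and IDH1 (r = 0.98), a dehydrogenase that makes NADPH. They were higher with IL-1β by 4.73, 2.42 and 0.85 on the log2 scale. Of the 13864 genes ranked, ALDH3A1 was 922nd and AHR 997th in likeness to CYP1A1, and ARNT2 had r = -0.82. The closest genes to CYP1B1 were ZNF891 (r = 0.98), SLX4 (r = 0.96) and LEAP2 (r = 0.96), none of which was called. Each of these values rests on 10 libraries of 2 groups and is a description.

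Genes that act with the receptor, and family relatives of its targets and repressors, were taken from 9 lists, of which 94 genes were tested. In limma's test 11 of them were called (11.7%, beside 6.68% of all tested genes), 7 higher and 4 lower. The median log2 fold change was -0.01, as it was over all tested genes. The lists were chosen with earlier results of these data known, so nothing is read from the shares called, here or in each list below.

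None of the 5 genes for chaperones and helpers of the unliganded receptor was called by limma (0 called, 1 with an unadjusted p below 0.05). HSP90AA1 and HSP90AB1, which hold the receptor, differed by 0.15 and 0.19 (adjusted p = 0.525 and 0.405), and the co-chaperone PTGES3 by 0.13 (adjusted p = 0.415).

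Of 14 relatives of AHR and ARNT and their coactivators, EPAS1 was called. This hypoxia-inducible factor, which also pairs with ARNT, was at 11.78 to 12.85 without IL-1β and at 13.20 to 14.19 where it was given, and rose by 1.54 (SE 0.23, adjusted p = 0.00170). HIF1A, its better known relative, was higher in all 5 lines without overlap, with a log2 fold change of 0.70 (SE 0.15, adjusted p = 0.0125), below the minimum for a call. NCOA3, a coactivator, and CLOCK, of the circadian clock, differed by -0.30 and -0.19 (adjusted p = 0.215 and 0.312).

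Among 10 other genes reported as AHR targets in various cells, 4 were called (40%, beside 6.68% of all tested genes). All 4 were higher with IL-1β, while others of the list were lower and not called. PTGS2 rose by 7.09 (SE 0.82, adjusted p = 4.23e-04), from between 12 and 537 reads per library to between 6766 and 58327. EREG rose by 4.41 (SE 0.67, adjusted p = 0.00182) in all 5 lines. Both are also well known as direct responses to inflammatory cytokines, which these values do not tell apart from the action of AHR. NQO1 rose by 1.02 (SE 0.25, adjusted p = 0.0198), but by only 0.02 in line 4, and SERPINB2 by 3.26 (SE 0.96, adjusted p = 0.0406), and their groups overlapped. The call of NQO1 was lost without the PF-06650833 library of line 1 or 5 or the IL-1β library of line 1, 2 or 5 (log2 fold change of 0.83 to 1.00), and without line 1, 2, 3 or 5 (0.78 to 1.04). That of SERPINB2 was lost without any single library except the IL-1β libraries of lines 3 and 4 (2.62 to 3.54, adjusted p = 0.0514 to 0.0962), without any line but line 3, and with no trend or a robust trend of the variance. NFE2L2, the regulator of the antioxidant response, had a log2 fold change of 0.57 (adjusted p = 0.00398). SLC7A5, an amino acid transporter that carries tryptophan and kynurenine, was at -0.70 (adjusted p = 0.0530), and HES1 at 0.09 (adjusted p = 0.769). GSTA4 was lower with IL-1β in all 5 lines without overlap (log2 fold change -0.56, adjusted p = 0.00248, below the minimum fold change). ABCG2 and CYP2S1 differed by -0.22 and 0.72 (adjusted p = 0.621 and 0.536).

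**Figure D4:**
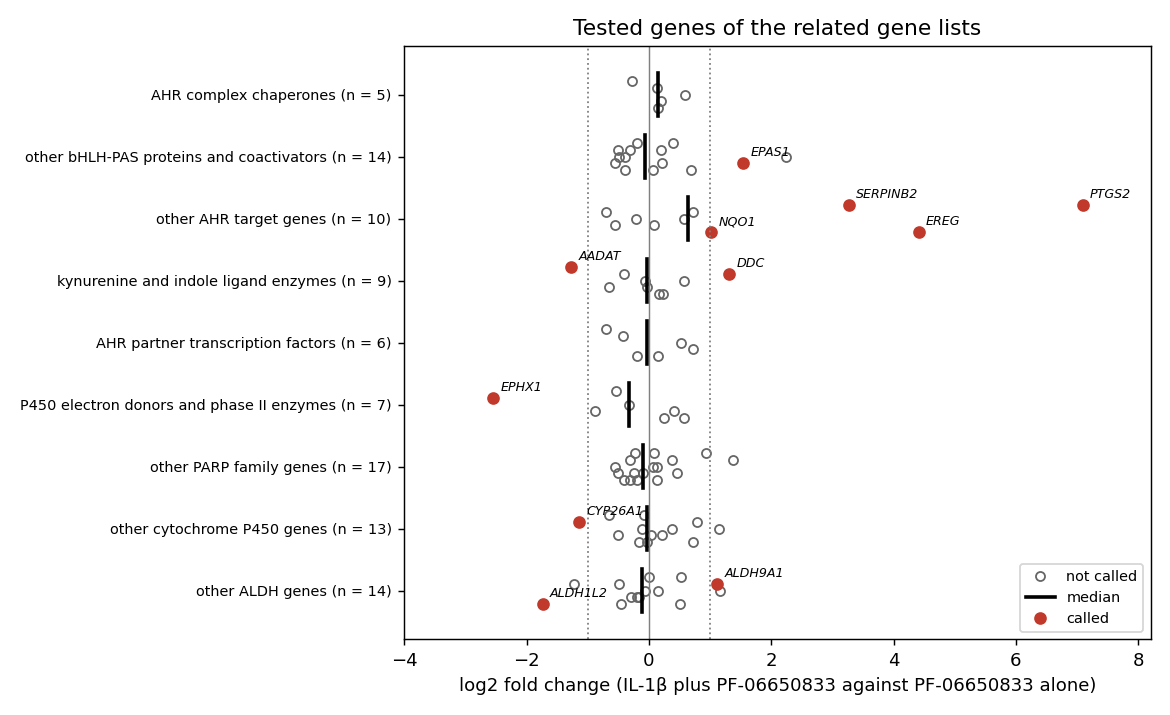
Log2 fold change between IL-1β plus PF-06650833 and PF-06650833 alone (horizontal axis) of the tested genes of 9 lists of genes related to the pathway; filled red points are called genes, open points genes not called, black bars list medians and dotted lines the minimum fold change for a call. PTGS2 is farthest to the right at 7.09 and EPHX1 farthest to the left at -2.55, and no gene is called in 3 of the lists.

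Of 14 enzymes in the table that make tryptophan-derived ligands, 9 had enough reads to be tested. Transcripts of IDO1, which opens the kynurenine pathway, were at 0 reads in all 5 libraries with PF-06650833 alone and at 6, 12, 0, 3 and 1 reads in lines 1 to 5 with IL-1β. IDO2 was likewise at 0 reads without IL-1β and at up to 11 with it, and KMO and KYNU never passed 2 reads, so none of these 4 was tested. Among those tested, AADAT, a transaminase that acts on kynurenine, fell by 1.27 on the log2 scale (SE 0.25, adjusted p = 0.00662), from 67 to 149 reads to 24 to 58. DDC, which decarboxylates aromatic amino acids, rose by 1.31 (SE 0.34, adjusted p = 0.0242) in 4 of 5 lines, from 3 to 24 reads to 16 to 95. The call of DDC was lost without the PF-06650833 library of line 2 or 5 or the IL-1β library of line 1 or 2 (1.11 to 1.29), and without line 1, 2, 3 or 5 (1.13 to 1.32). KYAT1, also a transaminase of kynurenine, was at 0.58 (adjusted p = 0.0145, below the minimum fold change), KYAT3 at -0.40 (adjusted p = 0.139) and AFMID at -0.65 (adjusted p = 0.127).

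No gene was called by limma among 6 transcription factors that bind AHR or act beside it (0 called, 3 with an unadjusted p below 0.05). KLF6 was lower in all 5 lines without overlap (log2 fold change -0.71, adjusted p = 0.00129, below the minimum fold change), and RELA and SP1 differed by 0.15 and -0.20 (adjusted p = 0.288 and 0.243). In the 17 genes of the PARP family and related hydrolases, to which TIPARP belongs, limma called 0 genes, and 6 had an unadjusted p below 0.05. PARP1, the main enzyme of the family in DNA repair, was at 11.51 to 11.72 in the first group and 11.06 to 11.31 in the second, lower in all 5 lines (log2 fold change -0.41, adjusted p = 0.00576, below the minimum fold change). PARP4, PARP14 and TNKS2 differed by -0.31, 0.13 and 0.13 (adjusted p = 0.0747, 0.764 and 0.512).

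Around the P450 enzymes, EPHX1, the microsomal epoxide hydrolase that works on products of CYP1A1, was called lower among 7 electron donors and conjugating enzymes. Its log2 expression of 10.89 to 12.97 in the first group and 8.02 to 10.31 in the second gave no overlap, and EPHX1 fell by 2.55 on the log2 scale (SE 0.51, adjusted p = 0.00730). POR, which passes electrons to every microsomal P450, had a log2 fold change of 0.57 (adjusted p = 0.105), CYB5R3 of -0.32 (adjusted p = 0.378) and GSTM3 of 0.42 (adjusted p = 0.0398, below the minimum fold change).

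The rest of the P450 family was mostly silent, with 11 of 27 other genes at 0 reads in all 10 libraries and 15 with at most 5 reads in any library. Among the 13 tested, CYP26A1, which degrades retinoic acid, was called. It entered the test through the reads of the first group, so its fold change is set against a group mostly at 0 reads and depends on the scale. It had 4 to 31 reads with PF-06650833 alone, and with IL-1β 3 reads in line 4 and 0 in the other lines (log2 fold change -1.14, SE 0.27, adjusted p = 0.0169). The call was lost without the PF-06650833 library of line 5, which held the 31 reads (-0.91), and without line 1, 2 or 5 (-1.15 to -0.87). CYP20A1, CYP27A1 and CYP2U1 differed by 0.03, -0.03 and -0.50 (adjusted p = 0.878, 0.914 and 0.141).

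Of 14 tested relatives of ALDH3A1, ALDH9A1, which oxidises aminoaldehydes, rose by 1.12 (SE 0.11, adjusted p = 1.71e-04). Its range was 10.94 to 11.20 in the first group and 12.06 to 12.53 in the second, and without line 4 its log2 fold change of 1.00 fell just short of the limit. ALDH1L2, a mitochondrial folate enzyme, fell by 1.74 on the log2 scale (SE 0.35, adjusted p = 0.00760) in all 5 lines. With the tenocyte line as a replicate block the retinaldehyde dehydrogenases ALDH1A2 (1.16, adjusted p = 0.0434) and ALDH1A3 (-1.22, adjusted p = 0.0264) were called too, against adjusted p-values of 0.168 and 0.210 without it. ALDH3A2, the closest relative of ALDH3A1, differed by -0.07 (adjusted p = 0.677), ALDH2 by -0.16 (adjusted p = 0.486) and ALDH18A1 by -0.29 (adjusted p = 0.178).

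Neighbouring genes were named from RefSeq on another horse assembly (TB-T2T), after the values had been seen. CYP1A1 lies between CYP1A2 and EDC3. EDC3, which acts in mRNA decay, was at 0.60 (adjusted p = 7.31e-04) and CSK, next after CYP1A2, at 0.18 (adjusted p = 0.208), and neither was called. Beside ALDH3A1, ULK2 and ALDH3A2 were not called (0.13 and -0.07). Beside CYP1B1, ATL2 and RMDN2 differed by 0.06 and 0.05 and were not called. CDC42EP3, the gene after RMDN2, was called lower (-3.15, adjusted p = 4.17e-04), as was CEMIP, next to the neighbour of ARNT2 (-3.29, adjusted p = 0.0116). AGR2, next to the neighbour of AHR, was called higher (1.195, adjusted p = 0.0260). Of the genes adjacent to AHR, SNX13 was not called (0.21) and AGR3 was not tested. ABHD17C, adjacent to ARNT2, was not called (-0.76, adjusted p = 0.0617). None of the tested neighbours of AHRR, ARNT and TIPARP, adjacent or next to adjacent, was called. The share of neighbours called was not set against that of all tested genes.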

How the data were processed

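Values were those the authors deposited, log2 expression of 29196 genes in 10 libraries, normalized between libraries. The authors quantified reads with Salmon (version 1.8) on EquCab3.0 transcripts and analysed them with DESeq2 (version 1.36), as named in the methods or the submitters' processing notes. The transformation is not given in the sources used here. The values had the form of a variance-stabilizing transformation with 0 reads at 3.43, which was inverted to normalized counts. Estimated reads follow from the step of 1 read in each library and are approximate, since 64.0 to 82.8% of low values lay no more than 0.15 from a whole read, where an even spread would give 30%.

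The 17992 genes with reads in 5 or more of the 10 libraries entered a fit by limma (version 3.58.1, under R 4.3.3), using a trend of the variance over the mean and no term for the line. All adjusted p-values are Benjamini-Hochberg values over these genes, and SE is that of the fit. The fit was tried on simulated counts of independent libraries, with the same dispersion for every gene and no changed gene of few reads. That trial does not cover libraries paired by line or calls on genes with few reads. Replicate numbers stand for the tenocyte line, and same-line libraries deviated together from their group means in all 5 pairs (correlations of 0.367 to 0.506, against a mean of -0.107 for other pairs). The fit with the line as a replicate block is given where it changed a call of a gene named in the text. The alternatives were other filters, scales, normalizations, variance models and thresholds, and leaving out each library or line.

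Members and gene lists were chosen with earlier results of these data known. In the lists, up to 4 called genes by smallest adjusted p and up to 3 genes not called with the highest means were named. PARP1, IDO1, IDO2, KMO, KYNU, GSTA4, ABCG2, CYP2S1, ALDH1A2, ALDH1A3 and neighbouring genes were named after their values were seen. For CYP1A1 and CYP1B1 the 3 genes of highest correlation were named. Sequences, coordinates and the values of some genes are not reported here. The limma p-values without a term for the line set the group difference against the spread of libraries within a group. Adjusted p moved either way with the tenocyte line as a replicate block. It went from 0.0530 to 0.0118 for SLC7A5, from 0.141 to 0.0184 for CYP2U1 and from 0.00129 to 0.00262 for KLF6. None of them was called in either fit.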

Additional observations from a re-analysis of the deposited data

Results flagged for a closer look

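The 94 groups of 5 libraries examined were those of the members and of the list genes named by adjusted p or mean. In 4 groups a library was set apart from the other 4 by a gap above Dixon's 95% limit for 5 values. Chance gives about 4.7 at 1 in 20. CYP1A2 with PF-06650833 alone was at 3.90 in line 1, which stands for 1 read against 0 in the other lines. AADAT with PF-06650833 alone was at 6.76 (67 reads) in line 3, while the others were at 7.39 to 7.57 (117 to 149 reads). CYP26A1 was at 5.68 (31 reads) in line 5 with PF-06650833 alone, against 4.40 to 4.60 (4 to 7 reads) in the others. With IL-1β, CYP26A1 was at 4.26 (3 reads) in line 4 and at 0 reads in the other lines.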

How the results depend on the processing

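The 1202 genes called became 2782 with no minimum fold change and 719 at an adjusted p below 0.01. With a library or line left out the count ranged from 762 to 1422, the lowest being 762 without line 1, 790 without line 2 and 777 without line 5. With the replicate block 1486 genes, 2 members and 13 list genes were called, the added list genes being ALDH1A2 and ALDH1A3. The 2 members called became 3 with no minimum fold change (ARNT2 added), and 1 at an adjusted p below 0.01 and also with a mean of at least 5, where ALDH3A1 was not tested. Over the libraries and lines left out, 1 to 2 members were called, ALDH3A1 being the one lost and, without line 3, ARNT2 the one gained. The 11 list genes called became 22 with no minimum fold change and 7 at an adjusted p below 0.01, and ranged from 7 to 12 over the libraries and lines left out, with 7 without the PF-06650833 library of line 5 or without line 1, 2 or 5. Over those same fits ARNT ranged from -0.03 to 0.25 and CYP1B1 from -0.72 (without the IL-1β library of line 3) to -0.32. ALDH3A1 differed by 2.88 on log2(normalized count + 1) and 3.15 with a pseudocount of 0.5. No member but ARNT changed direction in these alternatives. Depth limits CYP1A2, ALDH3A1, IDO1 and CYP26A1, among others, each with few or 0 reads in a group.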
